A study of Mus musculus with 3 samples.

Results

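E proteins, ID proteins and the factors TAL1 and LYL1 are helix-loop-helix transcription regulators, and 9 genes of this kind were followed in thymocytes, the T cell precursors that fill the thymus. They are the E protein genes Tcf3 (encoding E2A), Tcf4 and Tcf12 (encoding HEB), the ID genes Id1, Id2, Id3 and Id4, and Tal1 and Lyl1. The genes were taken by name, with earlier results of these data known. Each of the 9 had 1 probe set that the platform annotation assigns to it alone, out of 19938 genes with such a probe set. The arrays came from a study of stage 3 invasive lymphomas of tPTEN-/- mice. Only its normal group was used here, thymocytes of 3 mice with the genotype wild type on a mixed FVB and C57BL6 background, numbered 92, 103 and 106, and the lymphomas were not analysed here. Biotin-labelled total RNA of each mouse was read on 1 Affymetrix mouse gene array of the MoGene 1.0 ST type. No label gives the sex, the age or any treatment of the mice.

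Helix-loop-helix proteins act as dimers. An E protein dimer binds the E box, a short DNA element with the letters CANNTG, and in thymocytes such dimers drive genes of the T cell programme, among them those for the pre-T cell receptor and the recombinase. ID proteins carry the dimerisation domain but lack the basic DNA-binding stretch, so that an E protein bound by an ID protein cannot bind DNA. TAL1 and LYL1 bind E boxes as heterodimers with E proteins and form complexes with LMO2, LDB1 and GATA factors. Both belong to the programme of blood stem cells and early thymic progenitors, fall as T cells commit, and are oncogenes of T cell acute leukaemia when they stay on.

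Promoter sequence is shown for the 4 genes of the contrasts Id3 against Id2 and Lyl1 against Tal1, described further on. It is not shown for the contrast of Tcf3 against Tcf12, where the window of Tcf3 lay within the annotated gene. The sequences are from RefSeq on build GRCm38.p6, read 5′ to 3′ on the strand of the gene, and end at the base before the annotated gene. Capitals mark E boxes. Each window spans 250 bases, except that of Lyl1, which was shortened to 216 bases because the annotated gene begins earlier than the start site the window was taken from. Id3 lies at chr4:136143572-136143821 (plus strand), Id2 at chr12:25096093-25096342 (minus strand), Lyl1 at chr8:84701207-84701422 (plus strand) and Tal1 at chr4:115056176-115056425 (plus strand).
Id3: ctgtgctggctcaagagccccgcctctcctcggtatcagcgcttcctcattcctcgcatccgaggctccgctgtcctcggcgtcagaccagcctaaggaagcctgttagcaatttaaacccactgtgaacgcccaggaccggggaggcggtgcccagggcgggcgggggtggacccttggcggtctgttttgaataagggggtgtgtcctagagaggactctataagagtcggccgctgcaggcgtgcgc
Id2: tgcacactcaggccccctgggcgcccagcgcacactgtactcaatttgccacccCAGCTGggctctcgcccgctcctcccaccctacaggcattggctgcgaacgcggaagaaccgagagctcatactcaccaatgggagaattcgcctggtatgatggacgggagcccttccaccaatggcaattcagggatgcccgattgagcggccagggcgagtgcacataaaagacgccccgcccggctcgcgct
Lyl1: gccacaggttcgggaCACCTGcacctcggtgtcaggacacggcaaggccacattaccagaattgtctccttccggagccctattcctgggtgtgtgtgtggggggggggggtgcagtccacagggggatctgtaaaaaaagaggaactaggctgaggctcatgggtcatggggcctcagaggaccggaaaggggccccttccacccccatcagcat
Tal1: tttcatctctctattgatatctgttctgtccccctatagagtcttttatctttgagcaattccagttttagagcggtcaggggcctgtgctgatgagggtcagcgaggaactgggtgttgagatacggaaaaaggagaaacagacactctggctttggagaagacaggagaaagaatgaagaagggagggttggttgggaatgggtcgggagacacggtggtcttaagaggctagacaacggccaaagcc

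Id2 held 1 E box in this window, with the letters CAGCTG, 196 bases before the start site. Lyl1 held 1 E box with the letters CACCTG, 235 bases before its start site, and Id3 and Tal1 held 0. Of all 32851 promoters in the RefSeq table, 66.2% had at least 1 CANNTG in the 250 bases before the start site; 13.0% had CAGCTG and 17.2% had CAGGTG, which reads CACCTG on the other strand. The GATA letters GATAA, searched on both strands, were found once, in Tal1 at 205 bases before the start site, and in 22.6% of all promoters. The RUNX letters TGTGGT (14.0% of all promoters) were in none of the 4 windows, nor were the EGR letters GCGNGGGCG (4.7% of all promoters). Among members whose sequence is not shown, Id4 held 2 matches of the EGR letters. Tcf12 held 1 CAGCTG in its first listed promoter. These are matches of letters and show no binding. CAGCTG and CAGGTG are both forms of CANNTG.

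Signals of all 9 genes lay above background. The background was set with 1207 genes for receptors of smell (the olfactory, vomeronasal and trace amine families), which the nose expresses. A gene counted as above background on an array when its level passed the 95th percentile of these receptors, at log2 levels between 5.91 for mouse 92 and 6.10 for mouse 103. By this measure 9 of 9 members passed on all 3 arrays, where 61.8% of the 19938 genes did. Tcf12, Tcf3, Id2, Id3, Tcf4 and Tal1 also passed the 99th percentile on all 3 arrays, 6 of 9; Id1 and Id4 passed it on 0 arrays and Lyl1 on 2. Probes differ in affinity, so that a level is compared with the same gene in another mouse and not with another gene. In a bulk sample, fewer cells that carry a transcript and less of it per cell cannot be told apart.

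The labels call these samples thymocytes, and 13 of 13 measured thymocyte markers were above background on all 3 arrays, where 61.8% of all genes were. Cd3d lay between 11.53 and 11.91, Cd4 between 12.03 and 12.15 and Rag1 between 13.38 and 13.81. The same samples carry a lymphoma entry as disease state, although titles and genotype read wild type. Each sample also carries an RNA integrity number of 3, which is low. Mouse 92 stood apart from the others by sex-linked genes. Xist read 5.30, 11.85 and 11.67 in mice 92, 103 and 106, and genes of the Y chromosome were high in mouse 92 alone among the 3 mice, with Eif2s3y at 10.42, 3.59 and 3.55, Uty at 9.74, 3.91 and 4.13, and Kdm5d at 9.69, 5.19 and 4.80. By these transcripts mouse 92 read as male and the others as female, so that sex and the single animal cannot be told apart in any difference between mouse 92 and the others. Neutrophil and B cell genes, described further on, also set mouse 92 apart. With 1 array a mouse, the difference between mice and the error of the array cannot be told apart, and having only 3 arrays limits how precise any value here can be.

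**Figure D1:**
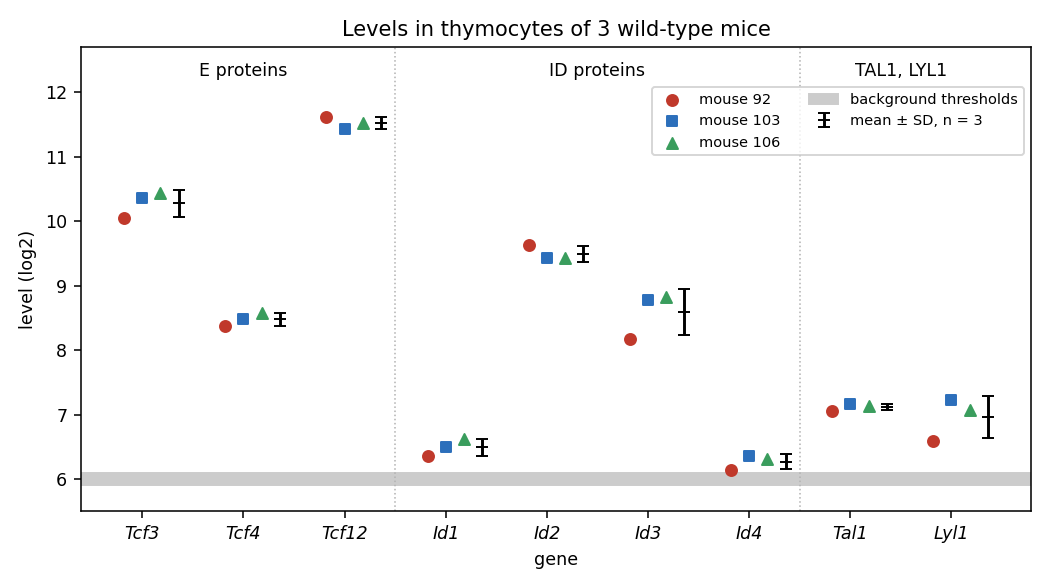
Log2 level of each gene in thymocytes of mice 92, 103 and 106 (1 symbol a mouse), with the mean and SD of the 3 mice beside it; the grey band spans the background thresholds of the 3 arrays, 5.91 to 6.10. All 9 genes lie above the band, Id4 and Id1 closest to it, and Id3 and Lyl1 have the widest error bars.

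Among the E proteins, Tcf12 was steady and Tcf3 differed most between mice. Tcf12 encodes HEB, which with E2A forms the main E protein dimer of thymocytes. Its level was 11.62 in mouse 92, 11.43 in mouse 103 and 11.52 in mouse 106, a mean of 11.52 ± 0.09 (SD, n = 3). Mouse 92 was the highest and the whole range came to 1.14-fold.

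Tcf3, needed for T cell commitment and for the arrest of thymocytes before receptor selection, was at 10.05, 10.36 and 10.44 on the log2 scale in mice 92, 103 and 106, a mean of 10.28 ± 0.21 (SD, n = 3). Mouse 92 was the low one, 1.32-fold below mouse 106 and 1.24-fold below mouse 103, while mice 103 and 106 differed by 1.06-fold. Tcf4, the E protein that specifies plasmacytoid dendritic cells, was at 8.37, 8.49 and 8.57 in the same order, a mean of 8.48 ± 0.10 (SD, n = 3). Mouse 92 was again lowest, by at most 1.15-fold. Tcf3 and Tcf4 therefore took the order 92, 103, 106 from low to high, and Tcf12 had mouse 92 at the top.

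The ID genes were split in the same way. Id3, induced by T cell receptor signals and needed for positive selection and for the restraint of innate-like gamma-delta T cells, read 8.18 on the log2 scale in mouse 92, 8.77 in mouse 103 and 8.83 in mouse 106, a mean of 8.60 ± 0.36 (SD, n = 3). Mouse 92 lay 1.51-fold below mouse 103 and 1.57-fold below mouse 106, and the latter 2 mice lay within 1.04-fold of each other. The range of 0.65 was the widest of the 9 genes. Only 3.64% of the 13314 genes tested for variation had a range as wide.

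Id2, the ID gene of NK cells, innate lymphoid cells and effector T cells, went the other way. Its log2 level was 9.63 in mouse 92 and 9.43 in each of mice 103 and 106, a mean of 9.49 ± 0.12 (SD, n = 3). Mouse 92 was highest by 1.15-fold, and mice 103 and 106 were alike to within 0.0018 on the log2 scale. Id1 and Id4, which are known from BMP-responsive, endothelial and neural cells, lay near background. Id1 was at 6.36, 6.50 and 6.63 in mice 92, 103 and 106 (mean 6.49 ± 0.13, SD, n = 3). Id4 was at 6.14, 6.35 and 6.31 (mean 6.27 ± 0.12, SD, n = 3), only 0.22 to 0.31 above the threshold of its array. Mouse 92 was the lowest for both genes.

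Tal1 had the narrowest and Lyl1 the second widest range of the 9 genes, and neither passed the test for variation given below. Tal1, a master regulator of blood formation, read 7.06, 7.16 and 7.13 on the log2 scale in mice 92, 103 and 106, a mean of 7.12 ± 0.05 (SD, n = 3). Its range was 1.07-fold, and 88.5% of the genes tested had a range at least as wide. Lyl1, the close relative of Tal1 that is active in the earliest thymic progenitors, read 6.60, 7.22 and 7.07 on the log2 scale, a mean of 6.96 ± 0.32 (SD, n = 3). Mouse 92 lay 1.54-fold below mouse 103 and 1.39-fold below mouse 106, and mouse 103 lay 1.11-fold above mouse 106. In mouse 92 the level was 0.68 above the background threshold of that array.

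**Figure D2:**
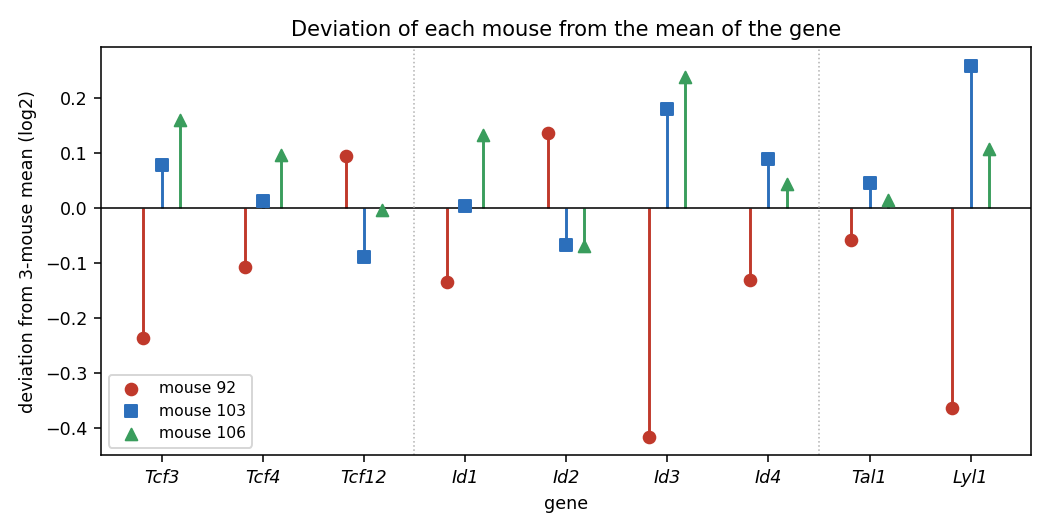
Deviation of each mouse from the 3-mouse mean of each gene on the log2 scale (1 symbol a mouse, with a line to 0). Mouse 92 lies below 0 for 7 genes, most for Id3 (-0.42), Lyl1 (-0.36) and Tcf3 (-0.24), and above 0 for Id2 (0.14) and Tcf12 (0.09).

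No member passed the test for variation between the mice. The test was limma's, with each gene's variance between mice set against the prior variance at its level, and Benjamini-Hochberg adjustment over the 13314 genes above background on at least 1 array. It called 0 of 9 members at an adjusted p under 0.05, where 0.225% of the genes tested, 30 genes, were called. At an unadjusted p under 0.05 it held 1 of 9 members, Id3, where 4.84% of the genes tested passed. The adjusted p was 0.771 for Id3, 0.996 for Lyl1 and 0.996 for Tcf3 (limma). For the other 6 genes the adjusted limma p lay between 0.997 and 0.998. The smallest range among the 30 called genes was 1.45 on the log2 scale, above the 0.65 of Id3, so a difference of the size seen in Id3 was not called in any gene. Without mouse 92, 0 members had an unadjusted limma p under 0.05. Without mouse 103, and likewise without mouse 106, 2 had, Id3 and Lyl1.

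**Figure D3:**
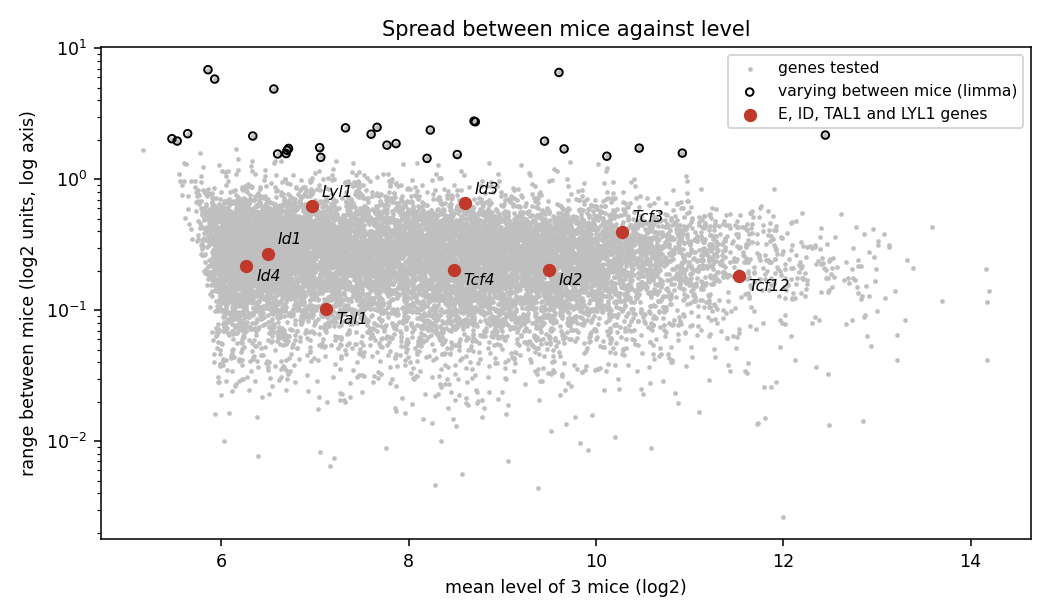
Range between the 3 mice (log2 units, logarithmic axis) against the mean log2 level for the 13314 genes tested (grey), the 30 genes called varying by limma (open circles) and the 9 helix-loop-helix genes (red). Id3 and Lyl1 lie in the upper part of the grey cloud and Tal1 in its lower part, and none reaches the open circles, which begin at 1.45.

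Counted by direction, 7 of 9 members were lowest in mouse 92, where 35.1% of the genes tested were, and 2 of 9, Tcf12 and Id2, were highest there, where 37.4% were. The 2 members with a range of at least 0.5, Id3 and Lyl1, compare with 10.0% of the genes tested. The mean deviation of mouse 92 was -0.08 over the 3 E protein genes, -0.14 over the 4 ID genes and -0.21 over Tal1 and Lyl1; the median over all genes tested was 0.0021. Tcf12 and Id2 went against their relatives in mouse 92, while Tal1 and Lyl1 were both lowest there and differed in size. The ranges of Tcf12 (0.18) and Id2 (0.20) were smaller than the median range of the genes tested, 0.25.

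Shifts of one member against another were measured within arrays, in pairs chosen after the levels were seen and hence given without a test. Id3 and Id2, and Tcf3 and Tcf12, deviated in opposite directions in mouse 92, and Lyl1 and Tal1 in the same direction by different amounts. The difference of Id3 minus Id2 was 0.83 lower in mouse 92 than in the mean of the other mice (shift -0.83 on the log2 scale, or 1.78-fold). That of Tcf3 minus Tcf12 was 0.50 lower (shift -0.50, 1.41-fold), and that of Lyl1 minus Tal1 was 0.46 lower (shift -0.46, 1.37-fold). A constant shift of a whole array cancels in these differences. Over the 10 alternative settings that include mouse 92, the Id3 and Id2 shift lay between -0.86 and -0.80. The Tcf3 and Tcf12 shift lay between -0.56 and -0.49, and the Lyl1 and Tal1 shift between -0.52 and -0.40. These shifts could move only under quantile and cyclic loess normalisation and with either of the other mice left out. Median centring cancels in a difference within an array, and the remaining settings left the levels of the members unchanged.

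TAL1 and LYL1 work with LIM-only, GATA and RUNX proteins and with corepressors, and their genes were read on the same arrays. Of 21 measured partner genes, 17 were above background on all 3 arrays, where 61.8% of all genes were; Lmo1, Lmo3 and Runx1t1 were above it on 0 arrays and Ldb2 on 2. None of the 18 tested was called varying between mice (0 calls by limma, 1 at an unadjusted p under 0.05, where 4.84% of the genes tested passed). That one was Lmo2, the bridging protein of the TAL1 complex and itself a T cell oncogene, at log2 levels of 7.32, 8.25 and 8.03 in mice 92, 103 and 106 (limma, adjusted p = 0.365). Mouse 92 was lowest, as for Lyl1, and the range came to 0.93. With mouse 106 left out, limma called Lmo2, in a setting that called 84 genes in place of 30.

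The other partners differed less. Ldb1, which joins LMO2-bound factors, was at 11.52, 11.54 and 11.76 in mice 92, 103 and 106. Gata3, the GATA factor of T cells, was at 10.64, 10.84 and 10.99, and the erythroid and progenitor factors Gata1 (6.43, 6.92 and 6.72) and Gata2 (6.60, 6.91 and 6.94) lay nearer background. Of the 18 partner genes tested, 10 were lowest in mouse 92, among them Gata1, Gata2, Gata3, Lmo2 and Ldb1, and 3 were highest there. Of all genes tested, 35.1% were lowest and 37.4% highest in that mouse. Runx1 was at 10.06, 10.11 and 10.38 and its partner Cbfb at 10.71, 10.64 and 10.70. The corepressor gene Cbfa2t3 was at 8.10, 8.30 and 8.40, while the coactivator gene Ep300 was lowest in mouse 103, at 10.45, 10.16 and 10.51. Over the 18 genes tested the median deviation was -0.05 in mouse 92, 0.02 in mouse 103 and 0.11 in mouse 106, against 0.0021, 0.02 and -0.02 over all genes tested.

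Genes that E proteins are known to regulate in thymocytes were all detected, and they did not share a direction between mice. All 13 measured target genes were above background on the 3 arrays, where 61.8% of all genes were. Limma called 0 of them varying, where 0.225% of the genes tested were called. At an unadjusted limma p under 0.05 there were 2, where 4.84% of the genes tested passed. Rag2, a subunit of the recombinase, was at 10.24, 9.41 and 9.91 in mice 92, 103 and 106 (limma, adjusted p = 0.549) and was highest in mouse 92. Notch1, the receptor of T cell commitment, was at 10.23, 10.63 and 10.87 (limma, adjusted p = 0.870) and was lowest there. With mouse 106 left out, limma called Rag2, again as 1 of 84 genes.

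Of the 13 targets, 5 were lowest and 6 highest in mouse 92, where 35.1% and 37.4% of the genes tested were. Rag1 (13.81, 13.38 and 13.58), the chemokine receptor gene Cxcr4 (12.58, 12.22 and 12.39), the terminal transferase gene Dntt (12.80, 12.65 and 12.64) and Il7r (10.57, 10.45 and 10.15) were highest in mouse 92. The gene of the pre-T cell receptor alpha chain, Ptcra, was at 7.99, 8.18 and 7.99, and the coreceptor gene Cd4 at 12.15, 12.03 and 12.11. The kinase gene Cdk6, which E proteins hold down, was at 9.98, 9.99 and 10.38. The Notch target Hes1 was at 6.70, 6.73 and 6.97, and the cytokine signal inhibitors Socs1 (9.50, 9.53 and 9.64) and Socs3 (7.47, 7.54 and 7.57) differed little. The median deviation of the 13 targets was -0.06 in mouse 92. The list mixes genes that E proteins drive with Cdk6, which they hold down. Neither this median nor the counts by direction therefore measure E protein output.

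**Figure D4:**
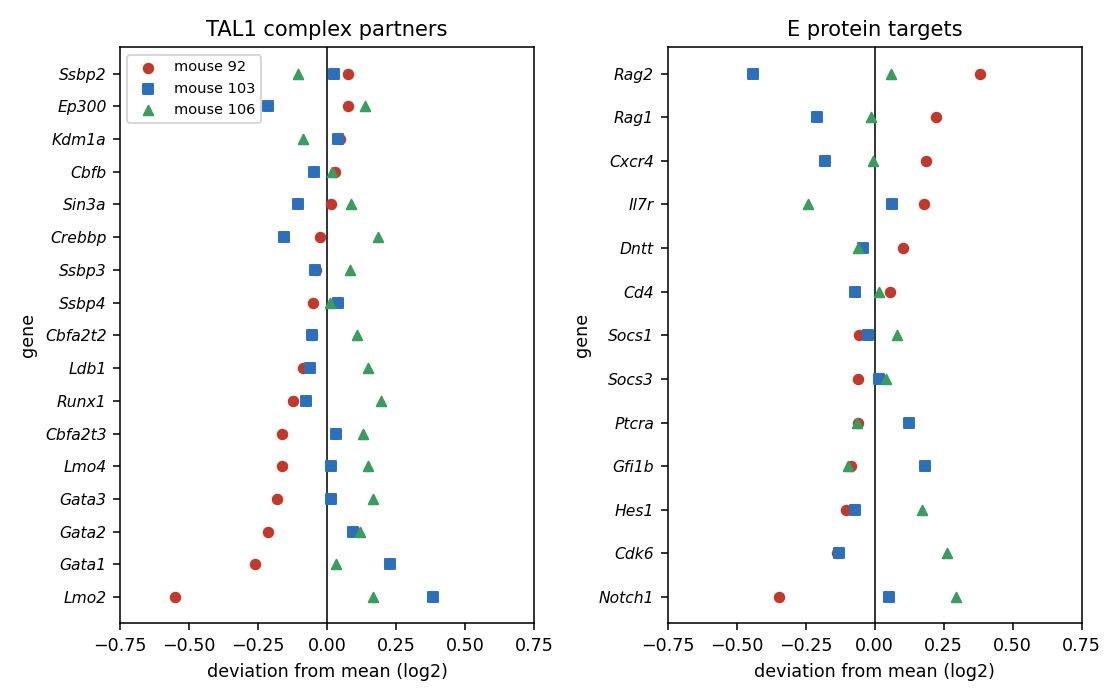
Deviation of each mouse from the 3-mouse mean (log2) for genes above background on all 3 arrays, 17 partners of the TAL1 complex on the left and 13 E protein targets on the right, ordered by mouse 92 against the others. Lmo2 and Notch1 have the lowest values of mouse 92 in their panels, and Rag2 has the highest.

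Signals that induce ID genes were described through BMP and TGF-beta receptors, their SMAD effectors and the EGR factors downstream of the T cell receptor. Of 17 measured genes of this list 14 were above background on all 3 arrays, and the BMP receptor genes Bmpr1a and Bmpr1b and the activin receptor gene Acvr1 were above it on 0 arrays. The share over all genes was 61.8%. None of the 14 tested was called by limma (0 calls, 1 at an unadjusted p under 0.05, where 4.84% of the genes tested passed). The widest ranges were those of the BMP receptor gene Bmpr2, at 7.74, 7.63 and 8.23 in mice 92, 103 and 106, of the inhibitory Smad6, at 6.24, 6.69 and 6.12, and of Smad2, at 9.78, 9.44 and 9.58. The EGR genes, singled out after their values were seen because EGR factors induce Id3, were split between the mice. Egr1 was at 8.27, 8.20 and 8.24 and Egr2 at 8.82, 8.55 and 8.60, both highest in mouse 92. Egr3, at 7.86, 7.91 and 8.15, was lowest there.

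Basic helix-loop-helix genes of other tissues gave a background for the family. Of 38 measured genes of muscle, nerve and other lineages, 14 were above background on all 3 arrays and 18 on 0; the share over all genes was 61.8%. The 3 with the highest means among those 14 were Atoh7, a retinal factor, at 9.48, 9.76 and 9.65 in mice 92, 103 and 106, Msgn1 of the early mesoderm at 7.20, 7.67 and 7.49, and Atoh8 at 7.25, 7.26 and 7.17. Tal2, the third gene of the TAL and LYL family and singled out after its values were seen, was above background on 0 arrays (5.18, 5.13 and 5.10). At the 99th percentile of the receptors 4 of the 38 passed.

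Genes of several other cell types were also low in mouse 92. Their counts are read beside the 35.1% of all genes tested that were lowest in that mouse. Neutrophil markers were lowest in mouse 92 in 11 of 11 cases, with a summed linear level of 866 there, 3788 in mouse 103 and 3183 in mouse 106. Of these 11, only 7 were above background on all 3 arrays. Mpo, Elane and Chil3 were above it on 2 arrays and Mmp8 on 1, none of them in mouse 92. A gene tested only through the other mice was bound to be low in mouse 92, so its direction was largely fixed by the filter. The widest ranges were those of Lcn2, Ngp and S100a8, at 2.78, 2.75 and 2.50. B cell markers were lowest in mouse 92 in 9 of 9 tested cases (summed 1081, 2232 and 1761), with ranges of 1.57 for Cr2 and 1.39 for Bank1, which were above background on 2 arrays, and of 1.32, 1.10 and 1.08 for Cd79a, Cd79b and Blk, the widest of those above it on all 3. Early progenitor and double-negative markers were lowest there in 8 of 10 cases (summed 1150, 1676 and 1626), led by Il2ra, Lmo2 and Mef2c with ranges of 1.03, 0.93 and 0.77. NK and innate lymphoid markers were lowest there in 5 of 7 tested cases (summed 1866, 2841 and 2281), led by Ccl5, Tbx21 and Nkg7. Spi1 of the progenitor list and Eomes of the NK list were also below background in mouse 92 and tested only through the other mice. Limma called 7 neutrophil markers, Chil3 and Mmp8 among them, 1 B cell marker and 0 of the progenitor and NK markers. Without mouse 92 it called 0 of the neutrophil markers. The called B cell marker was Cr2, which was lost without mouse 92 and under 6 other alternatives, among them quantile normalisation and median centring. Their part in the low Id3, Lyl1 and Tcf3 of mouse 92 was not tested. All 3 genes are known to be transcribed in B cells or early progenitors as well as in thymocytes. Id2, the ID gene of NK and innate lymphoid cells, was highest in mouse 92 (9.63, 9.43 and 9.43 in mice 92, 103 and 106), as was Tcf12. How either relates to these markers was not tested.

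Other lists bear on single members, and their counts are again read beside the 35.1% of genes tested that were lowest in mouse 92. Erythroid markers, which accompany Tal1 in red cell precursors, were lowest in mouse 92 in 7 of 9 tested cases (summed 2229, 3375 and 3120), with Alas2 at 8.18, 10.14 and 10.03 called by limma (adjusted p = 0.00293) but not without mouse 92. Car1 (5.94, 7.11 and 6.34) and Slc4a1 (6.76, 7.89 and 7.53) had the next widest ranges and were also lowest in mouse 92. Tal1 ranged over 0.10 on the same arrays. Of 10 measured erythroid markers 9 were above background on all 3 arrays, where 61.8% of all genes were. Klf1, a defining erythroid factor, was above it on 0. Endothelial markers, which accompany Tal1, Id1 and Id3 in vessels, were lowest in mouse 92 in 1 of 5 tested cases (summed 1381, 1349 and 1308). Of 10 measured, Pecam1, Egfl7 and Flt1 were above background on all 3 arrays and Kdr, Tek, Emcn, Tie1 and Sox17 on 0. Of the 4 measured megakaryocyte markers, Itga2b and Gp9 were above it on all 3 arrays and Pf4 and Ppbp on 0 (list summed 235.2, 271.1 and 227.6). Plasmacytoid dendritic cell markers, which accompany Tcf4, were lowest in mouse 92 in 2 of 7 cases (summed 6668, 6310 and 6233). Most of that sum came from Ccr9, which thymocytes also express, at 12.49, 12.37 and 12.36. The 2 lowest in mouse 92 were Irf8 (7.81, 8.26 and 8.08) and Spib (6.30, 6.91 and 6.64). The 3 highest there were Ccr9, Siglech (6.54, 6.50 and 6.32) and Lair1 (6.53, 6.50 and 6.53). Macrophage markers (summed 2589, 4186 and 2951) and thymic epithelial and fibroblast markers (summed 953, 1202 and 1009) had their highest sum in mouse 103 and their lowest in mouse 92. By gene, 5 of 8 tested macrophage markers and 3 of 8 tested epithelial and fibroblast markers were lowest in mouse 92. The widest macrophage ranges were 1.31 for Lyz2, 0.96 for C1qc and 0.91 for C1qb. Of these, Lyz2 and C1qb were lowest in mouse 92 and C1qc in mouse 106. Krt8 had the widest epithelial range above background on all 3 arrays, 0.81. The thymocyte markers themselves were lowest in mouse 92 in 3 of 13 cases and highest there in 8 (summed 71970, 66790 and 68370), with the widest ranges in Rag2, Rag1 and Cd3d. Of all genes tested, 37.4% were highest in mouse 92.

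**Figure D5:**
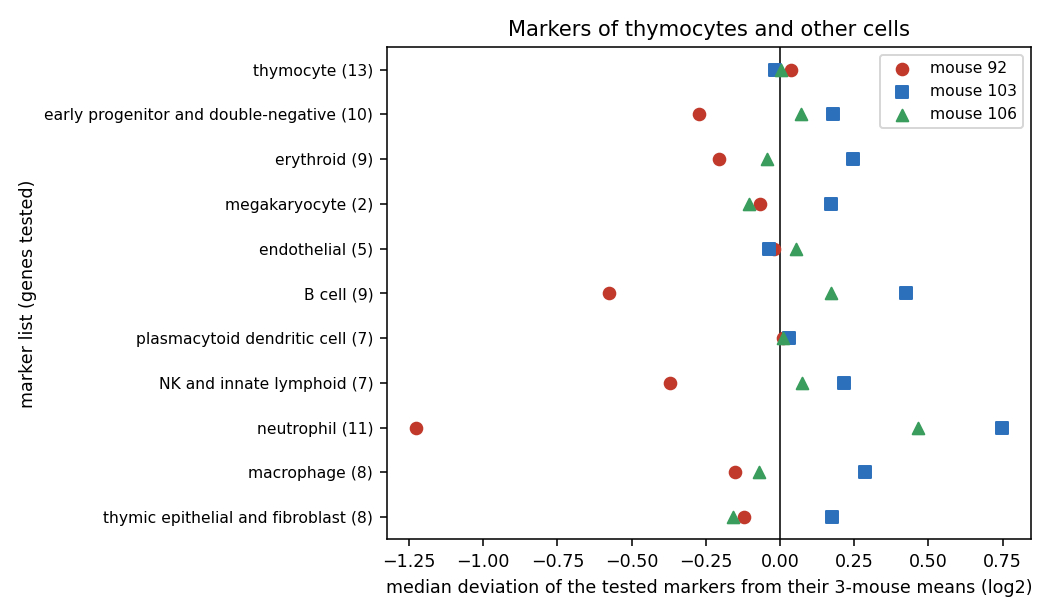
Median deviation (log2) of the tested genes of each marker list from their own 3-mouse means, by mouse; the number of genes tested is in brackets. Mouse 92 lies at -1.23 for neutrophil, -0.58 for B cell, -0.37 for NK and innate lymphoid and -0.27 for early progenitor markers, and at 0.04 for thymocyte markers.

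Likeness to Id3 and Lyl1, the 2 members with a range of at least 0.5, was measured over the 3 mice as the root mean square distance between deviations from the mean. The genes nearest to Id3 were Tent5c, a poly(A) polymerase gene (8.39, 8.97 and 9.02 in mice 92, 103 and 106, distance 0.01), Troap (7.47, 8.02 and 8.07) and Tlcd2 (6.36, 6.93 and 6.95), and 146 genes lay within 0.1 of it. Nearest to Lyl1 were Haao, an enzyme gene of tryptophan breakdown (6.48, 7.10 and 6.94, distance 0.0025), the desmosome gene Dsp (5.57, 6.17 and 6.03) and Mrgpre (6.08, 6.67 and 6.55), and 361 genes lay within 0.1. With 3 mice many genes share a pattern, and likeness shows no shared control.

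The genes beside the members in the RefSeq gene order were also read. Between a member and its neighbour, the nearest measured gene on a side, lay 0 to 13 genes without a measure here. Of 18 such neighbours, 14 were above background on all 3 arrays, where 61.8% of all genes were, and 4 on 0. Limma called 0 of them, where 0.225% of the genes tested were called. An unadjusted limma p under 0.05 was found for 2, where 4.84% of the genes tested passed. Beside Tal1, Stil, whose fusion to TAL1 by deletion is known in human T cell leukaemia, was at 7.93, 7.59 and 8.27 in mice 92, 103 and 106 (limma, adjusted p = 0.871), lowest in mouse 103, while Tal1 itself was flat. Pdzk1ip1, on the other side of Tal1, was at 6.50, 6.68 and 6.37. Zfp280d, with 8 unmeasured genes between it and Tcf12, was at 11.06, 10.52 and 10.64 (limma, adjusted p = 0.996). Both were highest in mouse 92. Beside Lyl1, Trmt1 was at 9.02, 9.31 and 9.22 and Nfix at 7.23, 7.47 and 7.52, both lowest in mouse 92 with less than the range of Lyl1. Of the neighbours of Id3, Eloa, with 3 unmeasured genes between, was at 9.99, 9.73 and 9.68, highest in mouse 92. E2f2 was at 9.91, 10.05 and 10.30, lowest there.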

How the data were processed

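Thymocyte RNA of 3 wild-type mice was measured on 1 array a mouse. The deposited values cover 35557 probe sets and run from 1.76 to 14.96, from which they were taken to be on a log2 scale. The authors produced the values with Affymetrix Expression Console, per the submitters' processing notes; not given in the sources used here: its version, background correction, summarisation and normalisation. The platform annotation gave 1 symbol for 21789 probe sets, several for 1621 and none for 12147. Probe sets of a gene were averaged (19938 genes; each member had 1). No build is given for the probes, so that RefSeq (GRCm38.p6) served for gene order and promoters only; 7 of 9 members had a promoter entry.

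The spread between mice was tested in R 4.3.3 by limma 3.58.1, with an intercept, eBayes with a trended prior that was not robust (10.4 prior degrees of freedom), and an upper-tail F ratio of each gene's variance to its prior with 2 residual degrees of freedom, Benjamini-Hochberg adjusted. Nothing in the labels says how the samples were taken beyond the mouse number, so that p-values cover only the spread of these samples, which may be technical. The members and lists were chosen with earlier results of these data known. Genes named were the 9 members, genes from the partner and target lists, the 3 genes most like each member of range 0.5 or more, and some of the neighbours. From most other lists, up to 3 genes of widest range above background were named (the highest means for the tissue-restricted list). Further genes of the marker lists were named after their values were seen. Alternatives were a 99th percentile background, the highest probe set, quantile, median and cyclic loess normalisation, a robust prior, a prior without trend, no filter, and leaving out each mouse.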

Additional observations from a re-analysis of the deposited data

How the results depend on the processing

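No member was called varying by limma under any of the 11 alternatives, and the level of mouse 92 minus that of the others kept its sign for all 9 genes under the 10 alternatives that include mouse 92 (Id3 from -0.69 to -0.60, Lyl1 from -0.62 to -0.47, Tcf12 from 0.08 to 0.18, Tal1 from -0.12 to -0.06). The difference of mouse 92 from the others could move only under quantile, median and cyclic loess normalisation and with mouse 103 or 106 left out. The other alternatives left the levels of the members unchanged. The adjusted limma p of Id3 lay between 0.495 and 0.998 and that of Lyl1 between 0.785 and 0.998. The number of members at an unadjusted limma p under 0.05 was 2 with a robust prior and 2 with a prior without trend, and from 0 to 2 with 1 mouse left out (0 without mouse 92). At the 99th percentile of background 2 ID genes, 1 of Tal1 and Lyl1 and 4 tissue-restricted genes passed. With 1 mouse left out, 0 to 1 partner genes and 0 to 1 target genes were called, Lmo2 and Rag2, both without mouse 106. The number of all genes called, 30, was 18 after quantile and 18 after cyclic loess normalisation, 19 with the 99th percentile, 44 with a robust prior, and 48 to 84 with 1 mouse left out. No paired analysis was possible because the labels give 1 group of mice. Signal close to background limits Id1, Id4 and Lyl1.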
